A study of Mus musculus with 32 samples.

Results

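The anaphase-promoting complex (APC/C) and its activators are described here by 10 genes chosen by name: the activators Cdc20 and Fzr1, and the subunits Anapc1, Anapc2, Anapc4, Anapc5, Anapc11, Cdc16, Cdc23 and Cdc27. All 10 were among the 13175 genes of the deposited table, and all 10 passed the filter on low counts in every comparison. The RNA of 32 single oocytes of wild-type (WT) mice was measured, 1 library per oocyte. Preantral follicles were either kept fresh or vitrified, then grown in an encapsulated in vitro culture. Oocytes at the germinal vesicle (GV) stage, 4 per treatment, were taken on day 8. Metaphase II (MII) oocytes, 12 per treatment, were taken on day 9 after ovulation had been induced. Each oocyte is a biological replicate in the labels; mouse and culture of origin are not stated there, so p-values measure the spread between these oocytes.

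As background, the APC/C is a ubiquitin ligase that marks proteins for destruction by the proteasome and so drives cells out of metaphase. An activator brings the substrates to it: Cdc20 acts at the change from metaphase to anaphase, and Fzr1 (also called Cdh1) takes over from late mitosis on and helps hold mouse oocytes at the GV stage by keeping cyclin B low. An ovulated mouse oocyte waits at MII with the APC/C held back by the inhibitor Fbxo43 (Emi2) until fertilization. Since reverse transcription with this kind of kit starts at the poly(A) tail, more transcript and a longer tail cannot be told apart in these values, nor can a change per oocyte from a change relative to other transcripts.

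The total count per oocyte was 10357543 to 17687247 in GV fresh, 11159677 to 16554201 in GV vitrified, 6196976 to 10142902 in MII fresh and 5300208 to 12206512 in MII vitrified. Oocyte markers were high in every group, with the median sum of 12 of 12 listed genes between 11324 and 16974 CPM (counts scaled to a library size of 1000000 by the trimmed mean of M values, TMM). The sum of the 9 measured genes of the cumulus expansion list, of 12 listed, was at most 1.93 CPM in GV oocytes, but it reached 842 CPM in MII fresh replicate 11 and 158 CPM in MII vitrified replicate 12. The 8 measured granulosa genes, of 10 listed, summed to a highest value of 136 CPM in GV oocytes, of 2117 CPM in MII fresh oocytes and of 337 CPM in MII vitrified oocytes, and the 4 measured theca and stroma genes, of 7, to at most 16.9 CPM. The cumulus gene Ptx3 was at 0 in all 8 GV oocytes and had a median of 0 in both MII groups. The number of the 10 genes that passed in each direction between stages was the same without the 6 MII oocytes whose cumulus sum was over 3 times the MII median. GV values were whole numbers and 11.7% to 19.7% of the values of each MII oocyte were not. GV and MII libraries also carry separate series of library numbers. Stage therefore cannot be told apart from library-number series or from the authors' processing.

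The GV oocytes were not alike. GV fresh replicate 3 was the lowest of its group for 6 of the 10 genes, with Fzr1 at 45.6 CPM and Anapc1 at 18.3 CPM, yet the highest in Cdc27, Cdc23 and Cdc16. GV vitrified replicate 1 was the lowest of its group in Fzr1, at 29.5 CPM, and the highest in 6 genes, Cdc27 at 299 CPM and Cdc16 at 25.2 CPM among them. The same pair had the highest Ccnb1 (cyclin B) of their groups, at 1475 and 2442 CPM beside 384 to 799 and 453 to 1208 CPM in the others. They also had the lowest total counts of their groups, 10357543 and 11159677, and the part of depth or of these 2 libraries was not tested beyond leaving each out. Without GV fresh replicate 3 the stage difference of Fzr1 in fresh oocytes was -3.89, and without GV vitrified replicate 1 that in vitrified oocytes was -3.48.

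Among the 10 genes, Cdc20 is shown with sequence because it had the largest rise from GV to MII with no overlap, and because the end of its transcript holds signals known from maturing oocytes. As background, the cytoplasmic polyadenylation element, TTTTAT or TTTTAAT in DNA letters, lies close to the AATAAA signal and directs tail lengthening of stored transcripts in oocytes. In GENCODE M21 on GRCm38, Cdc20 (ENSMUSG00000006398.15) lies on chr4:118432901-118437352, minus strand, and transcript Cdc20-201 ends in a 3′ UTR of only 62 bases. The stretch below is chr4:118432917-118432946 read on the minus strand, with 2 overlapping TTTTAT motifs and the AATAAA signal in capitals.
Cdc20 3′ UTR site: tcttgtTTTTATTTTATtttttctAATAAA
The motifs start 18 and 13 bases before the first base of the signal. Both motifs were searched on the transcript strand in the last 60 bases of the 3′ UTR, and Cdc20 was the 1 gene of the 10 with a match there. Of 10897 tested genes with a 3′ UTR of at least 60 bases, 13.8% had one. The share was 21.2% among those higher and 7.9% among those lower in fresh MII oocytes. Over the whole 3′ UTR other members had matches too, with 8 in Cdc27 and 3 in Anapc4 as the most. The search rests on annotated ends, and that of Fzr1 holds no AATAAA or ATTAAA signal in its last 50 bases. A match is a description of letters and not of tail length, which was not measured.

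The activators moved apart between the stages. Cdc20 was 4.75-fold higher in MII than in GV oocytes of fresh follicles and 4.27-fold higher in those of vitrified follicles, while Fzr1 was 12.4-fold and 9.20-fold lower. Cdc20 measured 99.3, 122, 112 and 113 CPM in the 4 GV fresh oocytes and 123, 137, 106 and 151 CPM in the 4 GV vitrified oocytes. In MII oocytes its lowest, median and highest values were 319, 555 and 669 CPM in fresh and 358, 541 and 852 CPM in vitrified. Every MII oocyte of either treatment therefore lay above every GV oocyte, and the GV values lay close together. The rise was 2.25 ± 0.23 (SE) on the log2 scale in fresh oocytes (adjusted p = 4.56e-10, edgeR quasi-likelihood F test with Benjamini-Hochberg adjustment) and 2.10 ± 0.23 in vitrified oocytes (adjusted p = 1.33e-09, same test). Cdc20 shares 93.7% identity over 1512 bases with a processed pseudogene, Gm7856, which is not in the table, and 53 of its 1868 exonic bases overlap Elovl1 on the other strand; Elovl1 fell between the stages, by 2.01 on the log2 scale in fresh oocytes.

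Fzr1 ran the other way. In GV fresh oocytes it measured 119, 149.9, 45.6 and 196 CPM, and in GV vitrified oocytes 29.5, 81.9, 172 and 141 CPM. Its lowest, median and highest values were 6.01, 10.7 and 14.2 CPM in MII fresh and 1.78, 9.57 and 34.8 CPM in MII vitrified oocytes. The stages did not overlap in fresh oocytes; in vitrified oocytes 11 of 12 MII oocytes lay below every GV oocyte, and MII vitrified replicate 9, at the top, was above GV vitrified replicate 1. The difference was -3.64 ± 0.44 on the log2 scale in fresh (adjusted p = 1.29e-08, edgeR) and -3.20 ± 0.44 in vitrified oocytes (adjusted p = 1.30e-07, edgeR). MII counts of Fzr1 were as low as 8 in 1 oocyte, against at least 330 in every GV oocyte.

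**Figure D1:**
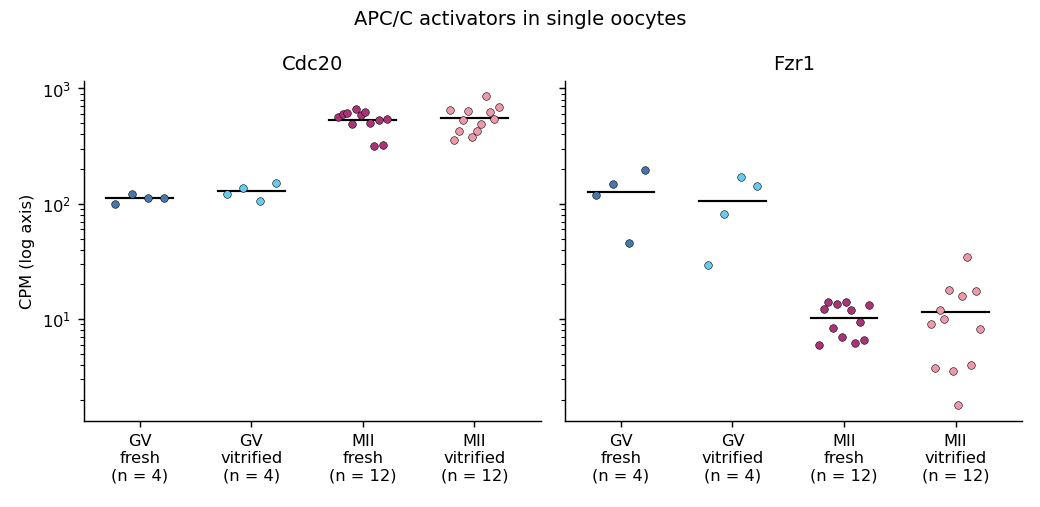
CPM of Cdc20 and Fzr1 in each of the 32 oocytes (points, log axis) with the group mean (line), for 4 GV and 12 MII oocytes per treatment. Cdc20 sits higher in MII than in GV, with 319 CPM as its lowest MII value, and Fzr1 sits lower, with 34.8 CPM as its highest MII value.

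The balance of the activators was also taken within each oocyte, as the log2 ratio of Cdc20 to Fzr1 counts with 0.5 added to each, which no scaling of library sizes can change. It was -0.26, -0.29, 1.30 and -0.79 in the GV fresh oocytes and 2.05, 0.74, -0.70 and 0.10 in the GV vitrified oocytes, and lay on both sides of 0; it is a ratio of counts, not corrected for transcript length. In MII oocytes it ran from 5.36 to 6.53 in fresh and from 4.61 to 7.81 in vitrified. The mean ratio was -0.01 ± 0.91 (SD, n = 4) in GV fresh, 0.55 ± 1.16 (SD, n = 4) in GV vitrified, 5.73 ± 0.38 (SD, n = 12) in MII fresh and 5.95 ± 1.02 (SD, n = 12) in MII vitrified. The lowest MII ratio was above the highest GV ratio, and the stage differences were 5.74 in fresh and 5.40 in vitrified oocytes. Each gave p = 0.0011 in a two-sided exact permutation test, the smallest that test can give, or 0.0022 adjusted over the 4 comparisons made. Within the MII libraries numbered under 20 the stage differences were 5.86 and 5.63, and within those of 20 and over 5.57 and 5.09. Between treatments the ratio differed by 0.56 in GV oocytes (exact permutation p = 0.514) and by 0.23 in MII oocytes (permutation test, p = 0.48 with 100000 resamples). Single libraries moved both: the GV value was 0.06 without GV vitrified replicate 1 and 1.00 without GV fresh replicate 3, and the MII value was 0.06 without MII vitrified replicate 7 and -0.01 without the 6 MII oocytes with cumulus signal. The MII vitrified oocytes were more spread than the MII fresh ones in SD, a difference that was not tested.

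**Figure D2:**
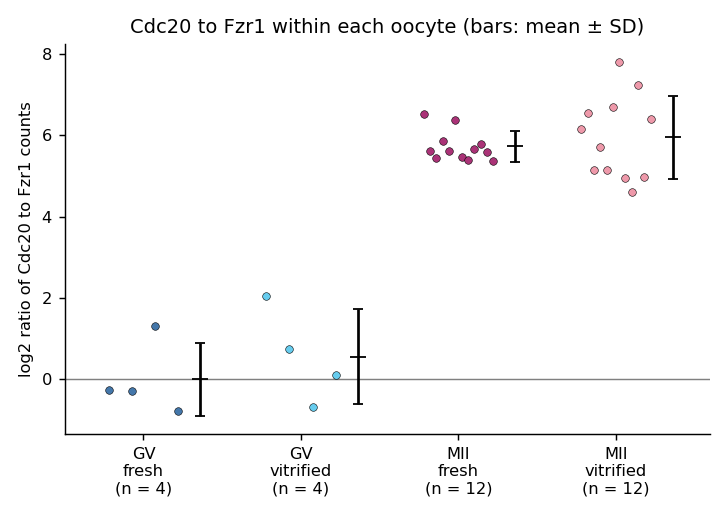
The log2 ratio of Cdc20 to Fzr1 counts in each oocyte (points) with the group mean and SD (bars), for 4 GV and 12 MII oocytes per treatment. GV oocytes lie between -0.79 and 2.05, and all 24 MII oocytes lie at 4.61 or above.

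Of the 10 genes, 3 were higher and 4 lower in MII than in GV among fresh oocytes, where 22.8% of all 11470 genes tested were higher and 29.8% lower. Among vitrified oocytes 2 were higher and 4 lower, against 23.3% and 33.7% of all genes. The counts are thus near what the whole table shows, and what sets the genes apart from each other is their direction. Cdc20 and Cdc27 were higher and Fzr1, Anapc2, Anapc4 and Anapc11 lower in both treatments, while Anapc1, Anapc5 and Cdc16 passed in neither. The median log2 difference of the 10 genes was 0.26 in fresh and -0.11 in vitrified oocytes, beside -0.23 and -0.34 over all genes. Another scaling moves that all-gene median to -0.37 and -0.45 (RLE size factors) or to -0.61 and -0.81 (library totals), so relative to all genes Cdc20 rose by 2.47 and 2.44, and Fzr1 stood at -3.41 and -2.86. No gene of the 10 that passed the test changed sign under any alternative run.

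**Figure D3:**
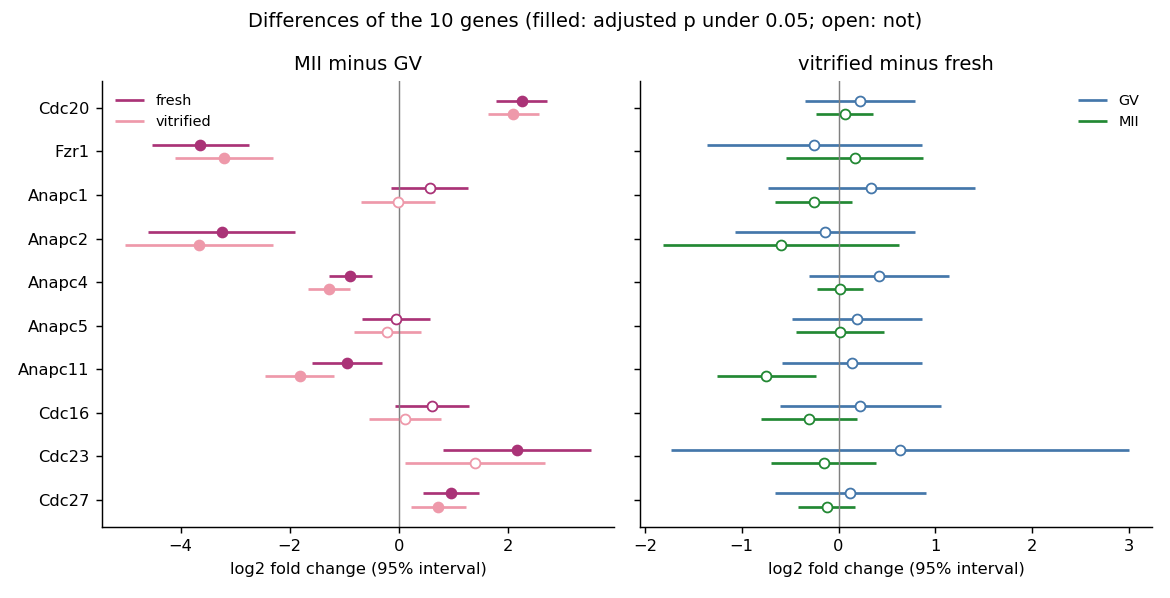
Log2 fold changes with 95% intervals of the 10 genes, MII minus GV in fresh and vitrified oocytes (left) and vitrified minus fresh in GV and MII oocytes (right). Filled points passed an adjusted p of 0.05, which 7 fresh and 6 vitrified stage differences did and no treatment difference did.

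The catalytic core of the APC/C pairs Anapc2, a cullin, with Anapc11, the RING subunit that binds the ubiquitin-conjugating enzyme, and both fell. Anapc2 measured 39.3, 63.4, 19.6 and 96.7 CPM in GV fresh and 42.4, 40.2, 51.5 and 61.2 CPM in GV vitrified oocytes. Its lowest, median and highest values were 0.308, 6.18 and 10.9 CPM in MII fresh and 0.197, 2.31 and 11.9 CPM in MII vitrified oocytes. No MII oocyte reached any GV oocyte of its treatment, and 2 of 12 MII fresh and 5 of 12 MII vitrified oocytes held 5 counts or fewer. The difference was -3.25 ± 0.66 in fresh (adjusted p = 9.32e-05, edgeR) and -3.66 ± 0.67 in vitrified oocytes (adjusted p = 1.69e-05, edgeR). Within the vitrified oocytes it was -4.92 against MII libraries numbered under 20 and -2.78 against those of 20 and over, and it passed in both.

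Anapc11 measured 37.8, 63.7, 33.9 and 74.0 CPM in GV fresh and 49.4, 51.9, 60.6 and 65.3 CPM in GV vitrified oocytes. In MII its lowest, median and highest values were 8.44, 22.4 and 55.6 CPM in fresh and 8.74, 15.9 and 28.4 CPM in vitrified oocytes. The stages overlapped in fresh oocytes, through 2 of the 12 MII oocytes, and not in vitrified oocytes. Its fall was -1.81 ± 0.31 on the log2 scale in vitrified oocytes (adjusted p = 5.98e-06, edgeR). In fresh oocytes it was -0.95 ± 0.32 (adjusted p = 0.0124, edgeR). That call was lost without GV fresh replicate 2 (-0.84, adjusted p = 0.0533, edgeR) and without GV fresh replicate 4 (-0.74, adjusted p = 0.0891, edgeR). It was also lost against the MII libraries numbered under 20 (-0.65, adjusted p = 0.122, edgeR) and with the replicate number as a block (-0.61, adjusted p = 0.188, edgeR).

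Scaffold subunits of the platform differed from one another. Anapc4, which joins the platform to the rest of the complex, measured 212, 295, 97.5 and 183 CPM in GV fresh and 295, 248, 222 and 277 CPM in GV vitrified oocytes. In MII its lowest, median and highest values were 85.2, 107 and 125 CPM in fresh and 69.3, 107 and 156 CPM in vitrified oocytes. All MII vitrified oocytes lay below all GV vitrified ones, and among fresh oocytes GV replicate 3 overlapped with MII. Anapc4 fell by 0.89 ± 0.19 on the log2 scale in fresh oocytes (adjusted p = 1.80e-04, edgeR) and stood at -1.28 ± 0.19 in vitrified oocytes (adjusted p = 4.69e-07, edgeR).

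Anapc1, the largest scaffold subunit, and Anapc5, also of the platform, did not pass. Anapc1 measured 83.8, 104, 18.3 and 58.9 CPM in GV fresh and 126, 38.6, 72.2 and 96.2 CPM in GV vitrified oocytes, beside MII medians of 99.4 CPM in fresh and 74.7 CPM in vitrified. Its stage difference was 0.57 (95% interval -0.14 to 1.28) in fresh and -0.01 (-0.70 to 0.67) in vitrified oocytes. The stages overlapped, with Anapc1 at 63.3 to 151 CPM in MII fresh and at 38.8 to 191 CPM in MII vitrified oocytes. Anapc5 measured 62.3, 97.5, 53.4 and 113 CPM in GV fresh and 99.6, 90.2, 91.7 and 84.5 CPM in GV vitrified oocytes, beside MII medians of 73.8 and 77.9 CPM. Its difference was -0.05 (-0.68 to 0.57) in fresh and -0.21 (-0.83 to 0.41) in vitrified oocytes. Reads of Anapc5 could also be placed elsewhere, since 16 annotated genes, most of them processed pseudogenes, are at 92.6% to 94.4% identity to it over 285 to 1179 bases, and none of them is in the table.

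**Figure D4:**
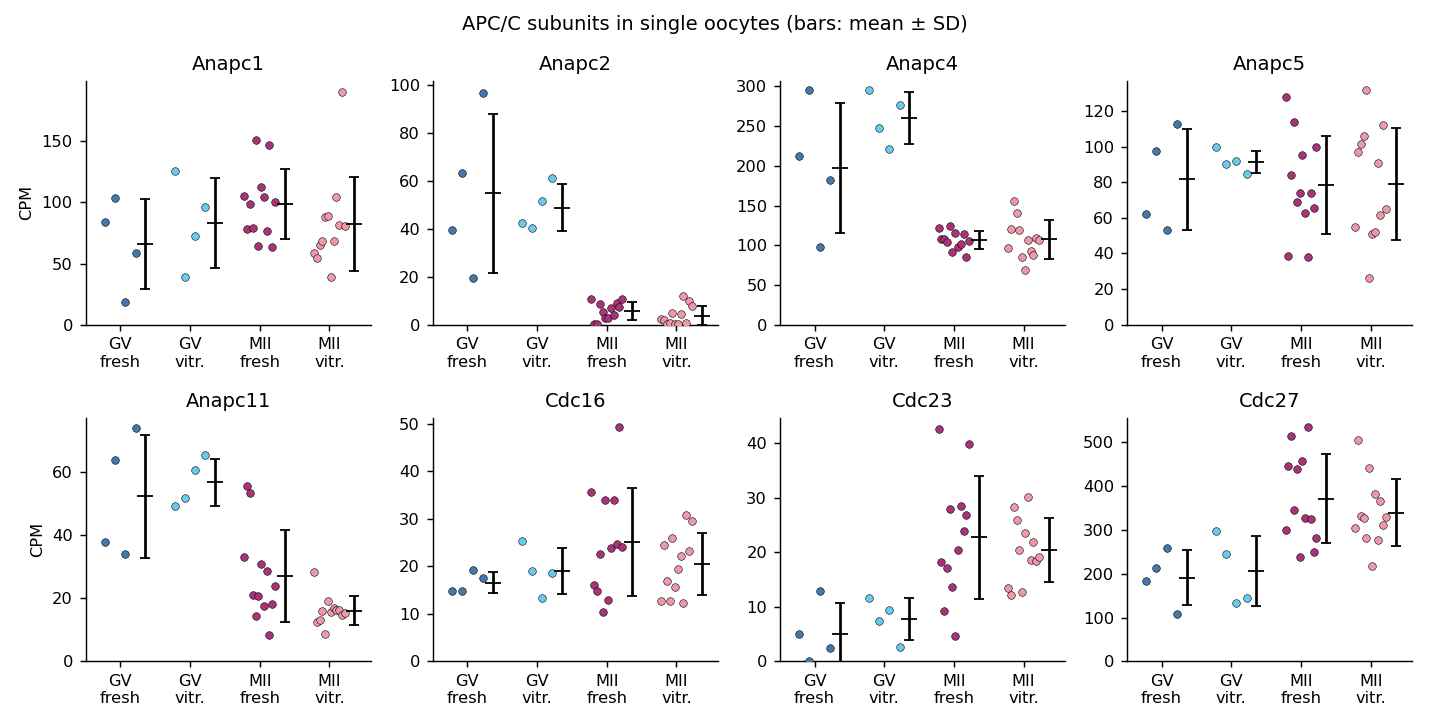
CPM of the 8 subunits in each oocyte (points) with the mean and SD (bars; lower ends below 0 are not drawn), for 4 GV and 12 MII oocytes per treatment; each panel has its own scale from 0. Anapc2 falls to a highest MII value of 11.9 CPM, and Cdc23 and Cdc27 sit higher in MII.

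The arm of the complex that binds activators holds subunits with tetratricopeptide repeats, among them Cdc16, Cdc23 and Cdc27. For these genes the differences were positive or near 0, which does not hold for the whole arm. Among other subunits, given below, Anapc13, which steadies the arm, fell in both treatments. Anapc7 was lower and Cdc26 higher in fresh MII oocytes, and neither passed. Cdc27, on which the tails of activators dock, measured 184, 213, 259.6 and 108 CPM in GV fresh and 299, 245, 134 and 144 CPM in GV vitrified oocytes. In MII its lowest, median and highest values were 237, 336 and 535 CPM in fresh and 219, 329 and 506 CPM in vitrified oocytes. The stages overlapped, with 10 of 12 fresh and 9 of 12 vitrified MII oocytes above all GV oocytes of their treatment. Cdc27 rose by 0.96 ± 0.25 in fresh oocytes (adjusted p = 0.00163, edgeR) and by 0.72 ± 0.25 in vitrified oocytes (adjusted p = 0.0124, edgeR). The call in vitrified oocytes was lost without GV vitrified replicate 3 (0.56, adjusted p = 0.0781, edgeR), without GV vitrified replicate 4 (0.59, adjusted p = 0.0717, edgeR), against the MII libraries of 20 and over (0.73, adjusted p = 0.0565, edgeR) and with library totals in place of scaled sizes (0.27, adjusted p = 0.277, edgeR).

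Cdc23 was the lowest of the 10 genes per kilobase in GV oocytes. It measured 4.98, 0, 12.9 and 2.48 CPM in GV fresh and 11.6, 7.40, 9.49 and 2.59 CPM in GV vitrified oocytes. Its lowest, median and highest MII values were 4.67, 22.1 and 42.5 CPM in fresh and 12.2, 19.8 and 30.2 CPM in vitrified oocytes. All MII vitrified oocytes lay above all GV vitrified ones, whereas 10 of 12 did so among fresh oocytes. The rise was 2.17 ± 0.67 in fresh oocytes (adjusted p = 0.00643, edgeR), or 3.21 without GV fresh replicate 3, and the difference of 1.39 ± 0.63 in vitrified oocytes did not pass (adjusted p = 0.0588, edgeR), though it did with DESeq2 (1.28, adjusted p = 0.0403), with limma-voom (1.56, adjusted p = 0.0193) and in a fit of the 2 vitrified groups alone (1.38, adjusted p = 0.00435, edgeR). Cdc23 shares 1271 of its 9500 exonic bases with Kif20a, a mitotic kinesin gene on the other strand, which was at 16.7 ± 8.59 CPM (SD, n = 4) in GV fresh and at 514 ± 95.7 CPM (SD, n = 12) in MII fresh oocytes. No source used here says whether strand was used in counting, so reads of the overlap cannot be told apart, and the part of Kif20a in the rise of Cdc23 was not tested. Of the 24 MII values of Cdc23, 9 were not exactly whole and 7 were off by over 0.06, with 0.285 as the most; 18 of those of Cdc27 were not exactly whole, none by over 0.06.

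Cdc16 passed in neither treatment. It measured 14.8, 14.7, 19.2 and 17.5 CPM in GV fresh and 25.2, 19.0, 13.4 and 18.6 CPM in GV vitrified oocytes, beside MII medians of 23.9 CPM in fresh and 20.7 CPM in vitrified. Its stage difference was 0.61 (95% interval -0.07 to 1.29) in fresh and 0.11 (-0.55 to 0.77) in vitrified oocytes; against the MII fresh libraries of 20 and over it was 1.02 (adjusted p = 0.0227, edgeR), and against those under 20 it was 0.36 (adjusted p = 0.429, edgeR).

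Groups without any overlap were also counted. Every MII oocyte lay above every GV oocyte for 1 of the 10 genes in fresh (12.5% of all genes) and for 2 in vitrified oocytes (13.2% of all genes). Every MII oocyte lay below every GV oocyte for 2 genes in fresh (18.5% of all genes) and for 3 in vitrified oocytes (20.7% of all genes), shares that lie near those of the table.

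Levels were compared between genes as CPM per kilobase of transcript. Cdc20 ranked first in all 4 groups, at 62.4 ± 5.28 (SD, n = 4) in GV fresh, 72.0 ± 10.8 (SD, n = 4) in GV vitrified, 296 ± 62.3 (SD, n = 12) in MII fresh and 308 ± 82.2 (SD, n = 12) in MII vitrified oocytes. In GV oocytes it was not apart from the next gene, Anapc4, at 51.1 ± 21.2 and 67.6 ± 8.40, whereas in MII oocytes the next gene, Cdc27, was at 68.4 ± 18.8 and 62.6 ± 14.1. Fzr1 went from place 3 in GV fresh (41.7 ± 20.6) to place 9 in MII fresh (3.35 ± 1.08), and Anapc2 from place 6 (18.2 ± 11.0) to place 10 (1.91 ± 1.24). Anapc5 and Anapc4 did not differ beyond their spread in MII oocytes, nor did Anapc1 and Cdc16. Anapc11 levels per kilobase rest on an annotated transcript of 3229 bases, most of it 3′ UTR, and would be higher on a shorter one.

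To ask whether freezing of the follicle altered these genes, oocytes of the 2 treatments were set against each other, stage by stage. No member passed in GV oocytes, where 0% of 10831 genes did, and none in MII oocytes, where 0% of 8428 genes did (edgeR; 180 and 1053 genes had an unadjusted p under 0.05; DESeq2 called 0 and 52 genes and limma-voom 0 and 0). In GV oocytes the 10 differences ran from -0.25 (Fzr1) to 0.64 (Cdc23) on the log2 scale, with a median of 0.21 beside 0.00 over all genes. In MII oocytes they ran from -0.75 (Anapc11) to 0.17 (Fzr1), with a median of -0.14 beside -0.05.

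Anapc11 in MII was the 1 treatment difference of a member with an unadjusted p under 0.05 (edgeR). In that comparison 12.5% of all genes had one, so 1 of 10 members is near the share of the table. Its means were 27.2 ± 14.5 CPM (SD, n = 12) in fresh and 16.1 ± 4.68 CPM (SD, n = 12) in vitrified oocytes, a difference of -0.75 (95% interval -1.26 to -0.23, adjusted p = 0.257, edgeR). The groups overlapped, and the values within library numbers were -0.99 under 20 and -0.30 at 20 and over. Cdc20 differed by 0.06 (-0.23 to 0.36) in MII oocytes, but by -0.28 under 20 and by 0.53 at 20 and over. Fzr1 likewise differed by 0.17 (-0.54 to 0.87), and by -0.38 and 0.76 within the library numbers. Missing the threshold does not make the treatments alike: the 95% interval lay between -1 and 1 for 4 of the 10 genes in GV (18.9% of all genes) and for 8 in MII (63.8% of all genes), the exceptions in MII being Anapc2 (-1.81 to 0.62) and Anapc11.

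Whether the stage difference itself differed between treatments was tested as an interaction. No member passed, and 0% of 11470 genes did (edgeR; 467 had an unadjusted p under 0.05 and DESeq2 called 8). The median interaction of the 10 genes was -0.40 beside -0.13 over all genes. Their values rest on the same oocytes, so they are not independent of each other. The extremes were Anapc11 at -0.87 (95% interval -1.83 to 0.10) and Fzr1 at 0.44 (-0.95 to 1.83).

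A list of 28 other pathway genes was next, chosen with earlier results of these data known, so its counts beside all genes are a description. The remaining APC/C subunits of the list came first. Of 6, none rose and 3 fell in both treatments, where 22.8% of all genes rose and 29.8% fell in fresh and 23.3% and 33.7% in vitrified oocytes. Anapc15, which helps release Cdc20 from the checkpoint complex, measured 421, 377, 493 and 419.6 CPM in GV fresh oocytes and had a median of 23.7 CPM in MII fresh, a difference of -3.89 ± 0.25 (adjusted p = 4.87e-15, edgeR). Anapc13, a small subunit that steadies the arm, stood at -4.42 ± 0.57 in fresh (adjusted p = 4.28e-08, edgeR) and at -5.87 ± 0.60 in vitrified oocytes, with MII medians of 1.39 and 0.547 CPM. Anapc16 fell less, by 1.17 ± 0.22 on the log2 scale in fresh oocytes (adjusted p = 3.30e-05, edgeR). Anapc7 (-0.49), Anapc10 (0.61) and Cdc26 (0.45) did not pass in fresh oocytes, nor in vitrified ones. Exons of Anapc13 overlap Cep63 and those of Anapc15 overlap Tomt on the other strand, by 239 of 2377 and 1981 of 5161 bases.

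Of the 5 ubiquitin-conjugating enzymes of the complex, 4 were higher and 1 lower in both treatments, beside 22.8% higher and 29.8% lower of all genes in fresh and 23.3% and 33.7% in vitrified oocytes. Ube2s, which lengthens ubiquitin chains on APC/C substrates, was at 10.3 ± 8.06 CPM (SD, n = 4) in GV fresh and at 252 ± 66.9 CPM (SD, n = 12) in MII fresh oocytes, a rise of 4.61 ± 0.42 on the log2 scale (adjusted p = 2.37e-11, edgeR), and no MII oocyte overlapped with a GV oocyte. Ube2d2a (2.38), Ube2d1 (2.00) and Ube2d3 (1.19), which can start chains, rose as well. Ube2c, named after its value was seen as the 1 that fell, starts the chains that Ube2s lengthens and stood at -1.10 ± 0.34 in fresh (adjusted p = 0.00728, edgeR) and at -1.46 ± 0.34 in vitrified oocytes. Exons of Ube2s and of Ube2c overlap genes on the other strand, by 183 of 5141 and 592 of 2600 bases.

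Inhibitors and checkpoint genes counted 4 higher and 1 lower of 8 in both treatments, again beside 22.8% and 29.8% of all genes in fresh and 23.3% and 33.7% in vitrified oocytes. Fbxo43, the inhibitor that holds back the APC/C during the MII arrest, rose by 2.15 ± 0.27 in fresh oocytes (adjusted p = 3.81e-08, edgeR). Its means in fresh oocytes were 92.7 ± 33.2 CPM (SD, n = 4) in GV and 412 ± 124 CPM (SD, n = 12) in MII. Fbxo5 (Emi1), its relative that restrains Fzr1, was named after its value was seen as the 1 that fell, at -0.76 ± 0.28 (adjusted p = 0.0205, edgeR). Of the spindle checkpoint, Mad2l1 (2.02) and Bub1b (1.16), both parts of the complex that holds Cdc20, rose in fresh oocytes. So did Mad2l1bp (1.31), which helps take that complex apart. The other 3 genes, Bub3, Mad1l1 and Trip13, did not pass in fresh oocytes. Bub3, also part of that complex, had means of 233 ± 83.3 CPM (SD, n = 4) in GV fresh and 335 ± 119 CPM (SD, n = 12) in MII fresh oocytes. Its means in vitrified oocytes were 324 ± 130 CPM (SD, n = 4) in GV and 260 ± 51.8 CPM (SD, n = 12) in MII.

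Substrates of the complex counted 6 higher and 0 lower of 9 in fresh and 6 higher and 1 lower in vitrified oocytes. In fresh oocytes the mitotic cyclins Ccnb1 (3.13 ± 0.36, adjusted p = 5.25e-09, edgeR), Ccna2 (2.51) and Ccnb2 (2.00) and the spindle factor Tpx2 (2.02) rose. The 1 that fell in vitrified oocytes was Nek2, a centrosome kinase, named after its value was seen, at -1.42 ± 0.46 (adjusted p = 0.00874, edgeR). Exons of Ccna2 and of Nek2 overlap genes on the other strand, by 510 of 4083 and 298 of 4516 bases. Over all 28 pathway genes 14 were higher and 5 lower in fresh and 14 and 6 in vitrified oocytes. The shares of all genes were 22.8% and 29.8%, and 23.3% and 33.7%. Since the list was chosen with earlier results known, these counts do not measure an excess over all genes. Between treatments none of the 28 tested in GV and none of the 27 tested in MII oocytes passed, Anapc13 being left out in MII by the filter on low counts.

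**Figure D5:**
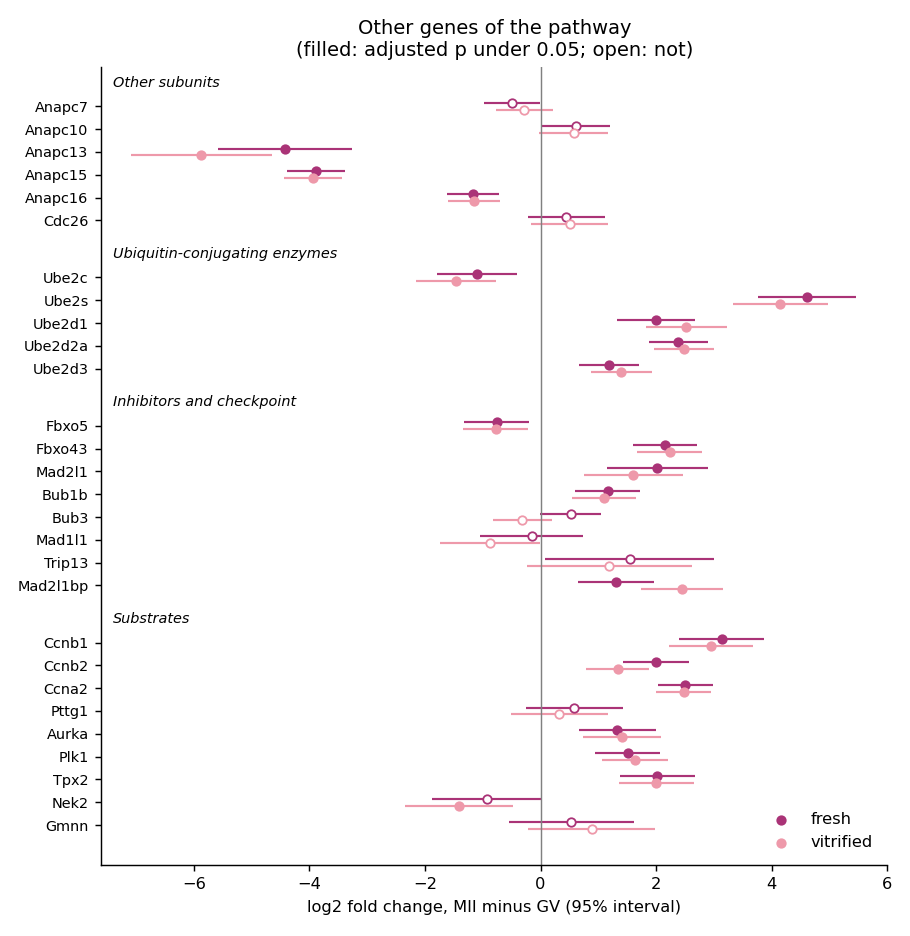
Log2 fold changes, MII minus GV, with 95% intervals for the 28 other pathway genes by role, in fresh and vitrified oocytes; filled points passed an adjusted p of 0.05. Anapc13 and Anapc15 lie farthest to the left, at -4.42 and -3.89 in fresh oocytes, and Ube2s farthest to the right, at 4.61.

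The genes whose log2 CPM followed each activator most closely were looked up among the 4683 genes whose mean log2 CPM was 4 or more, as a description. Over all 32 oocytes, where the stage step is shared, they were Ccna2, Nup98, Troap, Anxa7 and Snx9 for Cdc20 (Pearson r 0.961 to 0.963) and Dnajc11, Tyw1, Mus81, Ddx56 and Abcf3 for Fzr1 (0.916 to 0.933). Over the 24 MII oocytes alone, which differ in depth and in library-number series, other genes led: Pola2, Stoml2, Psmd3, Srsf4 and Lrrc8b for Cdc20 (0.794 to 0.833) and Eefsec, Cmtr1, Limk2, Frmd8 and Ttyh3 for Fzr1 (0.773 to 0.809).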

How the data were processed

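Libraries were made with a SMART-Seq ultra low input kit, 1 per oocyte, per the labels' protocols. The submitters' processing notes name HISAT2, featureCounts and mm10, with no version. The unit of the deposited table was read from its values: GV columns hold counts, as the authors deposited them, and MII columns resemble expected counts, since part of the values the authors deposited there are not whole, by a step that no source used here names. The design assumed counts, and each value was therefore rounded to the nearest integer before testing. Of 13202 entries 27 exact repeats were removed, and each remaining gene sums to 10 or more in MII, while 376 genes are at 0 in all GV oocytes.

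Genes were tested with the quasi-likelihood F test of edgeR 4.0.16 in R 4.3.3 after TMM scaling and filterByExpr (minimum count 10, total 15), two-sided, with Benjamini-Hochberg adjustment at 0.05 over all genes tested. Treatments were compared within a stage; stages and the interaction came from 1 fit of all 32 oocytes. The SE is the log2 fold change over the square root of F, and CPM uses the scaled sizes. The activator ratio was tested by permutation in scipy 1.17.1. DESeq2 1.42.0, limma 3.58.1, other scalings, filters, library numbers and single oocytes left out served as alternatives. The fits were run on simulated counts in which a small share of genes changed, with rises and falls in balance. The stage comparisons, in which many more genes differed, lie outside that setting, so their scaling was not tested by it. Motifs and positions come from GENCODE M21 (GRCm38), with 1 transcript per gene, and similar genes from BLAST 2.17.0 at 90% identity over 200 bases or more. No library was found to repeat another of its own group, and libraries of different groups were not compared in this way.

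The 10 members and all lists were chosen with earlier results of these data known. Named genes are the members, the other subunits and the 5 genes most like each activator. In each other role, the 4 genes with the smallest p between fresh stages are named. Ube2c, Fbxo5, Nek2, Bub3, Mad1l1 and Trip13 were added after their values were seen. Genes that overlap or resemble a member by position or sequence are also named. Protein sequences were not used here.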

Additional observations from a re-analysis of the deposited data

How the results depend on the processing

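No called difference of the 10 genes changed sign under any alternative, and of their 50 differences 2 lost a call and 2 gained one under some alternative; 17 of the 50, none of them called, changed sign under at least 1. The number of the 10 called was 6 to 7 in fresh and 5 to 6 in vitrified stage comparisons when single oocytes were left out, and stayed at 0 for treatment and interaction. Over all genes, the MII treatment comparison called 1 gene with library totals, 52 with DESeq2, 1 in the fit of all 32 oocytes, and 0 to 1 without single oocytes. The interaction called 3 genes with RLE size factors, 8 with DESeq2, and 0 to 4 without single oocytes. The cause was not tested. Replicate numbers gave no clear pairing of the oocytes. For this, the log2 CPM of each gene was taken as its deviation from the group mean, over genes with a mean log2 CPM of 4 or more. In these deviations, not in whole profiles, same-numbered oocytes of the 2 treatments correlated between -0.60 and 0.42 in GV. In MII the correlations ran from -0.50 to 0.48. In each stage 1 oocyte number correlated best with its own. Some fresh and vitrified libraries carry the same library number, and pairing by library number was not tested. With the replicate block, the ratio of Cdc20 to Fzr1 differed by 5.87 (fresh) and 5.35 (vitrified) between stages, each with p = 0.125 in an exact sign-flip permutation test, the smallest that 4 pairs allow, and 6 of the 10 genes were called in each treatment; in fresh oocytes Anapc11 (-0.61, adjusted p = 0.188, edgeR) was not. The fall of Anapc2 in vitrified oocytes was -5.27 with the replicate block and -4.55 with limma-voom, and the rise of Cdc23 in fresh oocytes was 4.23 with limma-voom. Counts of Anapc2 fell to 1 in MII and those of Cdc23 to 0 in GV oocytes, so counting error is large for them, and only 4 GV oocytes a group enter the treatment comparison there.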
